A study of Mus musculus with 33 samples.

Results

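The levels of 10 genes that set, keep or remove DNA methylation and repressive histone marks are described here in single mouse heart cells. They were taken by exact gene symbol and are Dnmt1, Dnmt3a, Uhrf1, Hells, Tet1, Tet2, Tet3, Ezh2, Ezh1 and Suv39h1. All 10 were found among the 14862 gene rows. The measurements are RNA-seq read counts of 33 single cells from the ventricles of mAG-hGem transgenic mice. In these mice green fluorescent geminin, a part of the FUCCI cell cycle reporter, accumulates from S phase to mitosis. Every group carried this transgene, and no other genotype, treatment or strain is named in the labels. Fluorescent (positive) and dark (negative) cells were sorted from E14.5 hearts, at embryonic day 14.5 (10 positive and 11 negative), and from P5 hearts, at postnatal day 5 (6 positive and 6 negative). Per the labels, cells were accepted as cardiomyocytes when PCR found the cardiac troponin gene Tnnt2 and did not find a marker of other heart cells. The labels name no animal, so each group counts as 1 sample. No test between groups was made, and all intervals below are 95% intervals that cover counting error only.

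When DNA is copied, the new strand lacks methyl groups. Uhrf1 recognises the site that is methylated on one strand alone and brings in Dnmt1, the maintenance methyltransferase, while the remodeller Hells (also called Lsh) helps methylation reach packed chromatin. Dnmt3a sets new methylation, and the Tet enzymes oxidise methylcytosine as a step towards its removal. Ezh2 and Ezh1 are alternative catalytic subunits of Polycomb repressive complex PRC2, which methylates histone H3 at lysine 27, and Suv39h1 methylates lysine 9 in heterochromatin. In the heart, Dnmt3a and PRC2 are known to act on genes that change as cardiomyocytes mature, and Uhrf1, Dnmt1, Hells and Ezh2 are known in many tissues as genes of dividing cells.

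The promoters are shown because the genes divide by a short word that E2F factors, regulators of S phase genes, are known to bind. RefSeq promoters of build GRCm38.p6, each 250 bases before to 50 after a start site, matched all 10 genes and gave 16 promoters. The letters TTTCCCGC, TTTCGCGC, TTTGCCGC and TTTGGCGC were searched on both strands. They occurred in promoters of 5 genes (Dnmt1, Uhrf1, Hells, Ezh2 and Suv39h1) and in no promoter window of the other 5 (Dnmt3a, Tet1, Tet2, Tet3 and Ezh1). In all, 5 of the 16 promoters (31.2%) held a match, against 2.26% of all 32851 promoters of this length. By gene, 2.60% of 27025 genes, 32.1% of 28 S phase genes and 6.52% of 46 G2/M genes with a promoter in the table held it. No match overlapped a CCAAT box, another word of cell cycle promoters, which is present in 37.4% of all promoters. The stretches around the matches follow, 5′ to 3′ on the gene's strand, with the match in capitals.
Dnmt1, match 219 bases before the start: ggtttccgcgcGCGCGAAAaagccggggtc
Dnmt1, match 33 bases after the start: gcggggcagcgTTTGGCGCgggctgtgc
Uhrf1, match 185 bases before the start: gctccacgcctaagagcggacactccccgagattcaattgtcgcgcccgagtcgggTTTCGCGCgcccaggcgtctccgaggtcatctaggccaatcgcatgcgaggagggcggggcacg
Hells, match 62 bases before the start: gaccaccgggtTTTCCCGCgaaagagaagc
Ezh2, match 3 bases after the start: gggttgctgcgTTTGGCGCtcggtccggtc
Suv39h1, match 64 bases before the start: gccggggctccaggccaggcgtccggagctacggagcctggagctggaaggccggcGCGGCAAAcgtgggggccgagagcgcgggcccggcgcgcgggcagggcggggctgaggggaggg
The stretches lie at chr9:20952824-20952853 and chr9:20952574-20952601 (Dnmt1, minus strand), chr17:56304072-56304191 (Uhrf1, plus) and chr19:38930917-38930946 (Hells, plus). Those of Ezh2 and Suv39h1 lie at chr6:47595009-47595038 and chrX:8074362-8074481, both on the minus strand. In the GENCODE annotation the matches of Dnmt1, Hells and Ezh2 fall in untranslated exons at the start of a protein-coding transcript, and those of Uhrf1 and Suv39h1 in introns of transcripts that begin farther upstream. The capitals of the first Dnmt1 line and of Suv39h1 are the reverse complement of a searched word. A match of letters is a description and not a binding site.

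The deposited counts per cell summed to between 2545036 and 38465225 reads. A cell's level is given as reads per 1000000 of its own total (CPM), and a group's level in the same way from its summed counts and totals, which gives deeper cells more weight. All cells of the E14.5 positive group (10 of 10), 10 of 11 E14.5 negative cells and 5 of 6 P5 positive cells had cardiomyocyte genes as their highest marker list. None of the 6 P5 negative cells did, and endothelial, red blood cell or fibroblast markers led in them. Myh7 was at 0 in all of them, and Actc1, Mybpc3, Ttn and Ryr2 reached 10 CPM in none. Of the same list, Tnnc1 and Myl3 reached 10 CPM in 3 of these cells, Tnnt2 and Tnni1 in 2, and Tnni3 and Myh6 in 1. Tnnc1 stood at 3266 CPM in its highest P5 negative cell. The P5 positive cell L2P12 was led by endothelial markers (2605 CPM, cardiomyocyte sum 96.7 CPM), and the E14.5 negative cell N10 by fibroblast and mural markers. The P5 positive cell L1P5 held the fewest reads. In L2P10 the G2/M genes summed to 1490 CPM, and in the other 5 P5 positive cells to 23525 CPM or more. Results that rest on these cells are given with and without them. Sort and cell type cannot be told apart between the P5 groups, nor can stage and cell type between P5 negative and E14.5 negative cells.

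**Figure D1:**
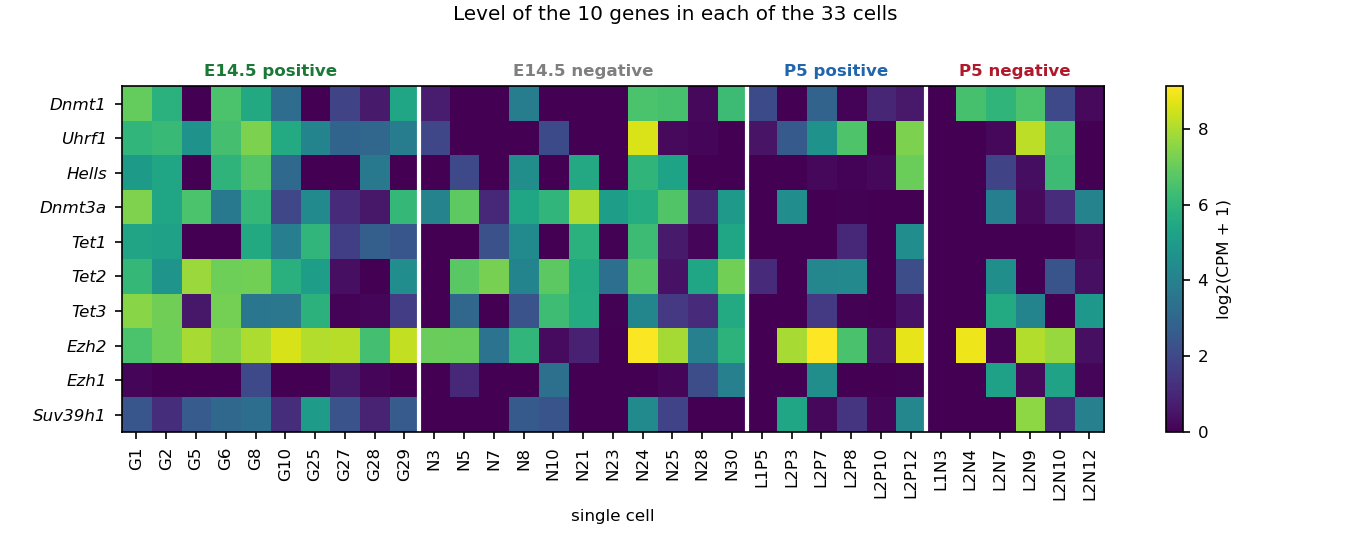
Level of each gene (rows) in each of the 33 cells (columns, in 4 groups), as log2(CPM + 1) by colour. Ezh2 is bright in all 10 E14.5 positive cells, and cell N24 holds most genes, while L1N3 holds no read of any of the 10.

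Uhrf1 (chr17:56303321-56323486) had reads in all 10 E14.5 positive cells and in 5 of 11 E14.5 negative cells. Its level in the positive cells was 6.71 CPM at the lowest, 35.8 at the median and 158 at the highest (cell G8). In the negative cells the median was 0, and the highest was 384 CPM in cell N24, followed by 3.15 CPM in N10. Thus every positive cell stood above every negative cell other than N24. Of the genes that reached 10 CPM in some E14.5 cell, 0.740% (77 of 10409) had a lowest positive cell above all but 1 negative cell, and Uhrf1 was the single member of the 10 among them. This pattern was chosen after its values were seen. It reached 10 CPM in 8 of 10 positive cells (80.0%, exact binomial interval 44.4% to 97.5%) and in 1 of 11 negative cells (9.09%, 0.230% to 41.3%). After each cell was thinned to 8671357 reads, with the shallower cells left out, the counts were 7 of 9 and 1 of 9.

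The group sums of Uhrf1 gave the opposite order, and cell N24 supplied 99.1% of the reads of the E14.5 negative group. Summed levels were 35.4 CPM (exact Poisson interval 34.5 to 36.3) in positive and 46.2 CPM (45.3 to 47.2) in negative cells, a log2 ratio of -0.39 (exact binomial interval -0.43 to -0.34). Without N24 the log2 ratio was 6.20. N24 was labelled negative but had the highest S phase sum of the E14.5 cells (22568 CPM, against 643 to 4878 CPM in the other negative cells) and a G2/M sum of 9057 CPM, and it held 9 of the 10 genes at 10 CPM or more. It also held reads of Gmnn, the gene of geminin, at 177 CPM, but the negative cells N30 (262 CPM) and N25 (205 CPM) held more. Why this cell was sorted as negative was not tested.

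At P5, Uhrf1 stood at 0 CPM at the lowest, 14.8 at the median and 158 at the highest in positive cells, where L2P12 (158) and L2P8 (96.3) were highest. The summed level was 70.8 CPM, a log2 ratio of 1.00 over the E14.5 positive cells (0.95 to 1.05). Without the endothelial-led cell L2P12 it was 0.26, and with equal weight for each cell -0.05, so the direction depended on the weighting. With L2P12 left out, the median over the remaining 5 cells was 4.92 CPM, and 2 of them reached 10 CPM. In E14.5 positive cells the median was 35.8 CPM, and 8 of 10 reached 10 CPM. The median was thus lower at P5, opposite to the summed ratio of 0.26. In P5 negative cells Uhrf1 was concentrated in L2N9 (299 CPM) and L2N10 (83.2 CPM), with the other 4 cells at 0.141 CPM or less.

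Dnmt1 (chr9:20907209-20959888) did not differ between the E14.5 groups by 2-fold. The positive cells ranged from 0 to 124 CPM with a median of 24.4, and the negative cells from 0 to 91.1 CPM with a median of 0.145. The negative group was divided: N24, N25 and N30 stood between 76.3 and 91.1 CPM, N8 was at 13.6 CPM, and the other 7 cells were at 0.668 CPM or less. Summed levels were 25.1 and 28.5 CPM (log2 ratio -0.18, interval -0.24 to -0.12).

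In P5 positive cells Dnmt1 was low in every cell. The highest was L2P7 at 6.47 CPM, the median was 0.744, and no cell reached 10 CPM (0 of 6, exact binomial upper bound 45.9%), against 5 of 10 E14.5 positive cells. The summed level was 1.25 CPM (1.03 to 1.498), a log2 ratio of -4.33 over E14.5 positive cells (-4.61 to -4.06) and a 20.1-fold lower level. When each cell was left out in turn the log2 ratio lay between -5.88 and -3.86, and within cells led by cardiomyocyte markers it was -4.08. The P5 negative cells, led by other cell types, stood at 39.6 CPM, with L2N9, L2N4 and L2N7 between 62.3 and 92.5 CPM. The log2 ratio of P5 positive over P5 negative cells was -4.99 (-5.27 to -4.72), and -6.53 without L2P7.

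Hells (chr19:38930915-38971051) was present in some cells and without a read in others in both E14.5 groups. In positive cells G8 stood at 102 CPM, G6, G2 and G1 between 30.5 and 60.5 CPM, G28 and G10 at 11.7 and 7.72 CPM, and the other 4 at 0. In negative cells N24, N21, N25 and N8 stood between 21.9 and 61.7 CPM, N5 at 2.997 CPM, and the other 6 at 0. The summed levels were 17.7 and 16.1 CPM, a log2 ratio of 0.13 (0.06 to 0.21) that lay between -0.66 and 0.83 when 1 cell was left out.

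The P5 positive sum of Hells, 33.1 CPM, came to 99.8% from the endothelial-led cell L2P12 (135 CPM). The 5 cells led by cardiomyocyte markers were at 0.160 CPM or less, so the log2 ratio over E14.5 positive cells moved from 0.91 with L2P12 to -7.68 without it, and was 1.69 without G8. Over P5 negative cells it moved from 1.22 to -7.37, and was 4.84 without L2N10. In the P5 negative group L2N10 (76.1 CPM) held 93.3% of the reads.

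**Figure D2:**
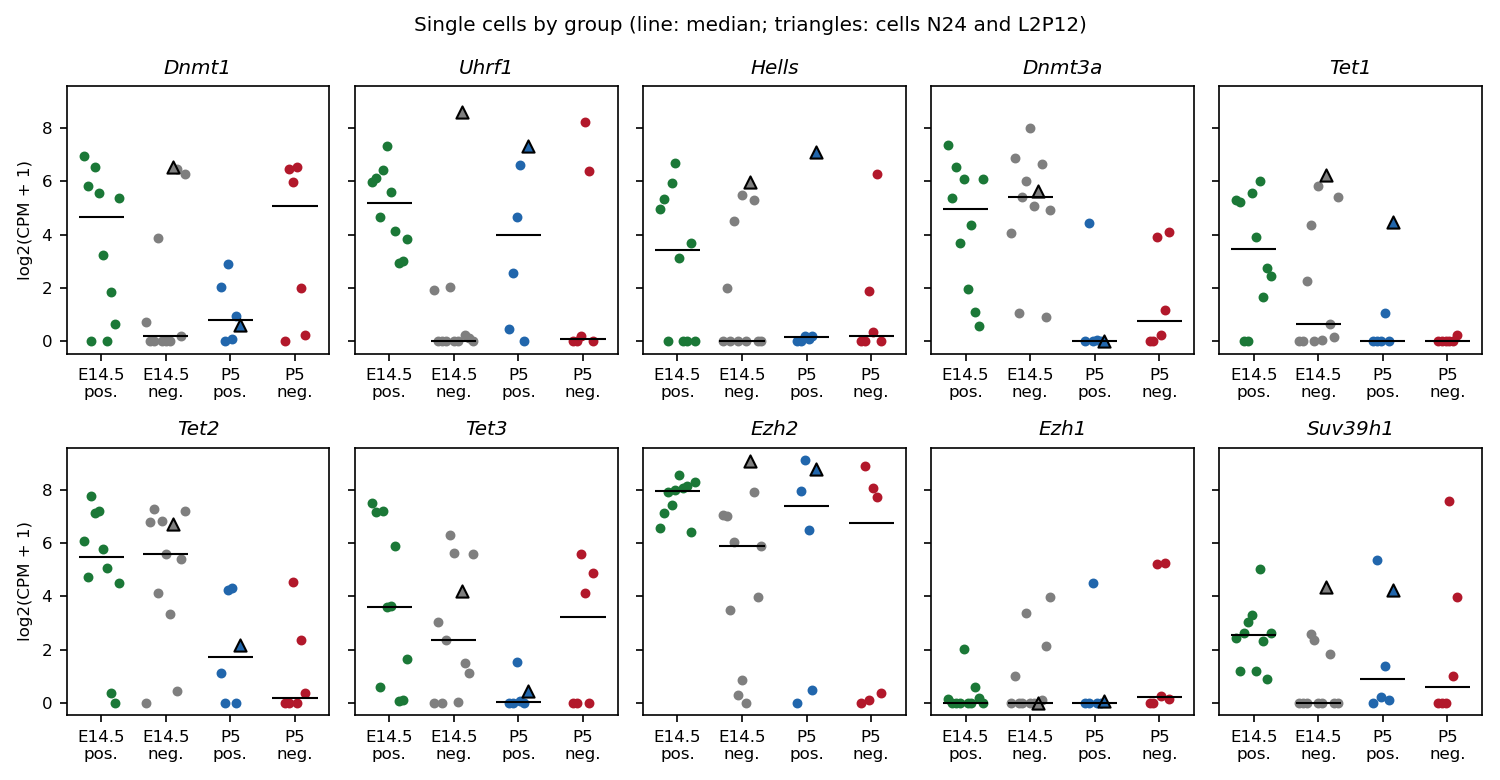
Each point is 1 cell, by group, as log2(CPM + 1); the line is the group's median and triangles mark cells N24 (E14.5 negative) and L2P12 (P5 positive). Uhrf1 is at 6.71 CPM or more in every E14.5 positive cell, Dnmt1 and Tet3 are low in the P5 positive cells, and the Hells reads of that group sit in L2P12.

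Dnmt3a (chr12:3806007-3914443), the enzyme for new methylation, was the gene found in the most E14.5 cells, with reads in all 21. Positive cells ranged from 0.4998 to 163 CPM (median 29.96) and negative cells from 0.901 to 256 CPM (median 41.3), and 7 of 10 and 9 of 11 reached 10 CPM. The summed level was lower in positive cells, 34.1 against 56.9 CPM (log2 ratio -0.74, -0.78 to -0.69), but under 2-fold.

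At P5 Dnmt3a reads were found in 2 of 6 positive cells. L2P3 stood at 20.9 CPM and held 99.7% of them, and the next cell, L2P8, stood at 0.0374 CPM. The summed level of 3.47 CPM gave a log2 ratio of -3.30 over E14.5 positive cells (-3.46 to -3.13), and -11.36 without L2P3. The P5 negative cells were also below their E14.5 counterparts, at 8.37 CPM with a highest cell of 16.0 CPM (log2 ratio -2.77, -2.88 to -2.66, and -3.43 without L2N7). Both P5 groups thus stood below both E14.5 groups in summed level.

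Each of the 3 Tet genes was found in both E14.5 groups. Tet2 (chr3:133463679-133545139) had the highest summed level of the 3 in both E14.5 groups, also per kilobase of exon, at 2.79 and 3.61 CPM per kilobase in positive and negative cells. Tet2 ranged from 0 to 214 CPM (median 43.2) in positive and from 0 to 152 CPM (median 46.5) in negative cells, and 8 of 10 and 8 of 11 cells reached 10 CPM. Its log2 ratio of -0.37 (-0.41 to -0.33) was within 2-fold. All 3 Tet genes were at 10 CPM or more in 5 of 10 positive and 3 of 11 negative cells.

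Tet3 (chr6:83362373-83459084) differed by a log2 ratio of 0.93 (0.87 to 0.99) between E14.5 positive and negative cells, at 33.6 and 17.6 CPM. Its positive cells were divided: G1, G6 and G2 stood between 140 and 178 CPM and G25 at 57.6 CPM, while the other 6 were at 11.3 CPM or less. In negative cells N10, the cell led by fibroblast and mural markers, was highest at 77.2 CPM, and without it the log2 ratio was 1.57. The direction differed between the 2 ranges of title numbers described further on. Tet1 (chr10:62804570-62908996) stood at 17.4 and 17.5 CPM in the same groups, with N24 as the highest cell (74.5 CPM).

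In P5 positive cells all 3 Tet genes were lower than in E14.5 positive cells. Tet3 had 33 reads in the whole group and 1.92 CPM in its highest cell, L2P7, a summed level of 0.358 CPM (0.247 to 0.503) and a 93.7-fold lower level (log2 ratio -6.55, -7.09 to -6.06). Leaving out 1 cell moved it between -8.21 and -6.10. Tet2 stood at 18.8 CPM in L2P8 and 17.9 CPM in L2P7 and at 3.47 CPM or less in the other 4, with a log2 ratio of -2.42 (-2.53 to -2.32) that was -3.34 without L2P8. Tet1 came to 94.3% from L2P12 (21.1 CPM), and its log2 ratio was -1.67 with that cell (-1.81 to -1.53) and -5.38 without it.

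The P5 negative cells separated the 3 Tet genes. Tet3 stood at 23.9 CPM there, with L2N7, L2N12 and L2N9 between 16.5 and 46.6 CPM and the other 3 cells at 0. Tet1 had 3 reads in the group, all in L2N12. Tet2 stood at 8.33 CPM, with 90.6% of the reads in L2N7. The log2 ratio of P5 positive over P5 negative cells was therefore -6.06 for Tet3 (-6.60 to -5.57), 0.08 for Tet2 (-0.07 to 0.22) and 7.24 for Tet1 (5.69 to 9.53). Without L2P12 the ratio of Tet1 was 3.53. That of Tet2 was 2.88 without L2N7 and -0.84 without L2P8, so single cells set its direction, and that of Tet3 was -5.08 without L2N7 and -7.72 without L2P7.

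Ezh2 (chr6:47530139-47595341) had the highest summed level of the 10 genes in every group, per kilobase of exon as well, with 34.4 CPM per kilobase in E14.5 positive cells. In the negative groups this rested on 1 cell each: without N24, Dnmt3a (57.9 CPM) stood level with Ezh2 (57.6 CPM) at E14.5, and without L2N4, Uhrf1 (13.6 CPM per kilobase) stood above Ezh2 (11.5) at P5. It was at 83.3 CPM or more in all 10 E14.5 positive cells (median 248, highest 375 in G10), and 10 of 10 reached 10 CPM (100%, exact binomial interval 69.2% to 100%). In negative cells it ranged from 0 in N23 to 535 CPM in N24 with a median of 58.4, and 8 of 11 reached 10 CPM (72.7%, 39.0% to 94.0%). The positive cells were close together and the negative cells lay below, within and above their range, so the groups overlapped.

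The summed Ezh2 levels were 229 CPM (227 to 232) and 114 CPM (113 to 116), a log2 ratio of 1.00 (0.98 to 1.03) that was 1.99 without N24 and 0.76 without N28. In P5 positive cells Ezh2 stood at 248 CPM, a log2 ratio of 0.11 over E14.5 positive cells (0.09 to 0.14), with values between -0.29 and 0.45 when 1 cell was left out. By cell, L2P7 stood at 557, L2P12 at 436, L2P3 at 243 and L2P8 at 88.8 CPM, and L2P10 and L1P5 at 0.398 CPM and 0. The 4 cells with Ezh2 therefore stood within or above the range of the E14.5 positive cells. In P5 negative cells L2N4, L2N9 and L2N10 stood between 210 and 469 CPM and the other 3 at 0.297 CPM or less.

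Ezh1 (chr11:101191115-101226463), the other catalytic subunit, was the reverse in level. No E14.5 positive cell reached 10 CPM (0 of 10, exact binomial upper bound 30.8%), and the highest was G8 at 3.05 CPM. Per kilobase of exon it stood at 0.0536 CPM in E14.5 positive cells, against 34.4 for Ezh2. In E14.5 negative cells it was highest in N30 (14.7 CPM) and N10 (9.24 CPM), with a log2 ratio of -2.82 (-3.22 to -2.45) for positive over negative cells. It was -4.09 without G8, -2.09 without N30 and -2.43 without N10.

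At P5 Ezh1 was carried by single cells. L2P7 (21.6 CPM) held 99.6% of the positive group's reads, and the log2 ratio over E14.5 positive cells was 2.89 with it (2.49 to 3.31), -4.99 without it and 4.16 without G8. In the P5 negative group L2N10 and L2N7 stood at 37.0 and 36.1 CPM, the highest Ezh1 levels in the data, and the other 4 cells at 0.182 CPM or less. Of these 3 cells, L2P7 and L2N10 also held Ezh2, at 557 and 210 CPM, and L2N7 held it at 0.0704 CPM.

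Suv39h1 (chrX:8061171-8074760) was low in level but present throughout the E14.5 positive cells, with reads in 10 of 10 against 4 of 11 negative cells. Positive cells ranged from 0.875 to 31.2 CPM (median 4.78, highest G25) and negative cells from 0 to 19.3 CPM (median 0, highest N24). The summed levels of 6.91 and 3.31 CPM gave a log2 ratio of 1.06 (0.92 to 1.20), which was 0.28 without G25 and 2.59 without N24. In P5 positive cells L2P3 (40.4 CPM) and L2P12 (17.6 CPM) were highest, with a log2 ratio of 0.73 over E14.5 positive cells (0.61 to 0.86) that was -0.26 without L2P3 and 1.51 without G25. In P5 negative cells L2N9 stood at 189 CPM and held 88.9% of the reads, so that the log2 ratio of P5 positive over P5 negative cells was -1.30 with L2N9 (-1.40 to -1.19), 1.67 without it and -2.29 without L2P3. An antisense transcript is annotated at the Suv39h1 start, and whether counting used strand is not given in the sources used here.

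**Figure D3:**
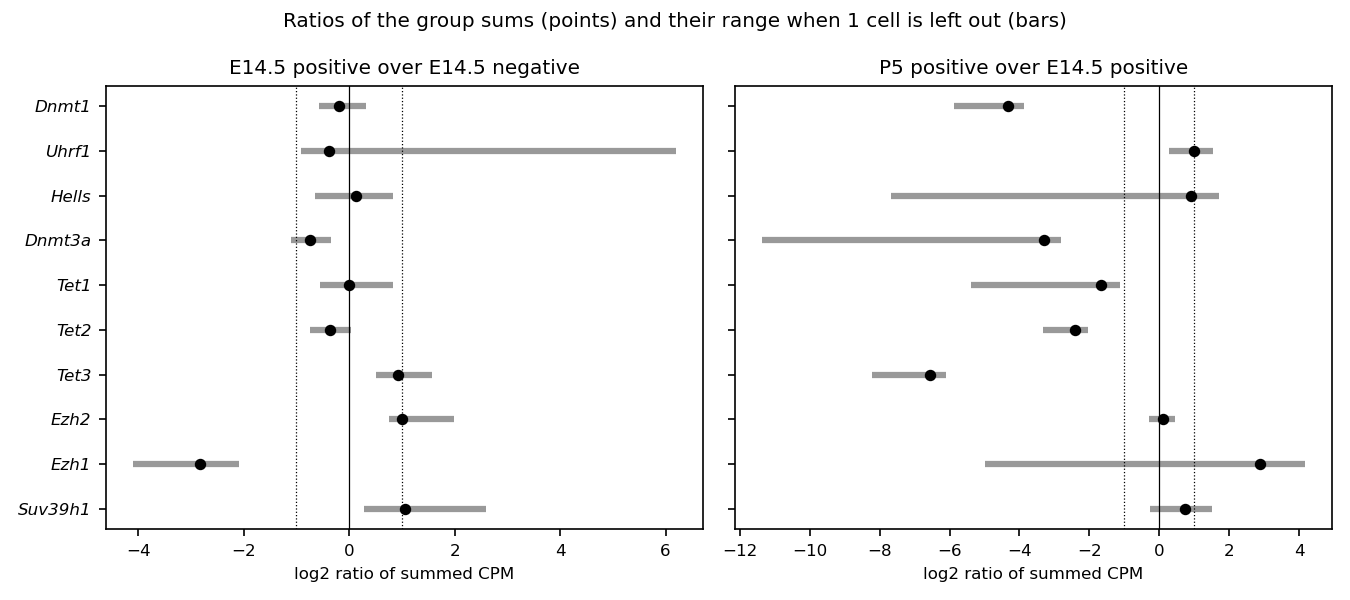
Log2 ratios of summed CPM (points) for 2 comparisons, with the range of values when 1 cell is left out (grey bars); dotted lines mark 2-fold. Dnmt1, Dnmt3a, Tet1, Tet2 and Tet3 stay below the 2-fold line at P5 under each such omission. The bars of Dnmt1, Uhrf1, Hells, Tet1 and Tet2 at E14.5 and of Hells, Ezh2, Ezh1 and Suv39h1 at P5 span 0.

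Counted together, few of the 10 genes differed by 2-fold between E14.5 positive and negative cells. With at least 10 reads over both groups, Ezh2 and Suv39h1 were at least 2-fold higher in positive cells (2 of 10, against 22.5% of all genes), and Ezh1 was lower (1 of 10, against 29%). The median log2 ratio was -0.10, against -0.16 for all genes. Both shares were near or below those of all genes.

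Between stages, in positive cells, 5 of 10 genes were at least 2-fold lower at P5 (Dnmt1, Dnmt3a, Tet1, Tet2 and Tet3), against 40.7% of all genes. Uhrf1 and Ezh1 were higher (2 of 10, against 30.3%). The median was -0.78, against -0.39 for all genes. The same 5 genes stayed at least 2-fold lower whichever cell was left out, and Tet2 reached 10 CPM in 2 of 6 P5 positive cells while Dnmt1 and Tet3 reached it in none. Titles of E14.5 cells begin with G or N and those of P5 cells with L1 or L2. Stage therefore cannot be told apart from any other difference between these sets of titles.

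P5 positive cells had 3 of 10 genes higher than P5 negative cells (Hells, Tet1 and Ezh2, against 34.2% of all genes) and 5 lower (Dnmt1, Dnmt3a, Tet3, Ezh1 and Suv39h1, against 39.4%). P5 negative cells had 2 higher than E14.5 negative cells (Ezh1 and Suv39h1, against 33.5%) and 3 lower (Dnmt3a, Tet1 and Tet2, against 41.2%). These comparisons share groups with those above. They set a group with no cell led by cardiomyocyte markers against groups in which most cells were. In none of the 40 pairs of gene and comparison were the ranges of the 2 groups' cells apart. Over all genes that reached 10 CPM in a cell of the comparison, 0.240%, 1.17%, 1.78% and 2.52% had ranges apart, in the order in which the comparisons are given here.

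The E14.5 titles carry numbers in 2 ranges, 1 to 10 and 21 to 30, whose meaning the labels do not give. Within numbers 1 to 10, 6 of the 10 genes were at least 2-fold higher in positive than negative cells (30.7% of all genes) and 1 lower (25.6%). Within 21 to 30, 1 was higher (23% of all genes) and 6 lower (36.7%). The log2 ratio of Uhrf1 was 5.87 in the first range and -2.72 in the second, that of Dnmt1 4.07 and -2.04, and that of Hells 2.99 and -2.85. The 3 Tet genes and Dnmt3a turned direction as well, Tet1 from 2.25 to -0.71, Tet2 from 0.39 to -2.37, Tet3 from 1.39 to -0.40 and Dnmt3a from 0.21 to -1.73. Ezh2 (2.03 and 0.76), Suv39h1 (0.98 and 1.15) and Ezh1 (-2.26 and -3.52) kept their direction in both. The second range holds N24, and the turn of Uhrf1 rested on that cell. Its other negative cells had Uhrf1 at 0.178 CPM or less, and its positive cells at 6.71 CPM or more. Dnmt1 and Hells were high in further negative cells of that range. Dnmt1 stood at 88.3 CPM in N25 and 76.3 CPM in N30, and Hells at 44.2 CPM in N21 and 38.4 CPM in N25.

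Uhrf1, Dnmt1, Hells and Ezh2 were together at 10 CPM or more in 4 of 10 E14.5 positive cells (G1, G2, G6 and G8), in N24 alone of 11 E14.5 negative cells, and in no P5 cell. Those 4 positive cells were the 4 with the highest Uhrf1 levels. Across the 10 positive cells, on the log2(CPM + 1) scale, Uhrf1 went with Hells (Pearson r = 0.79, Spearman rho = 0.83) and with Dnmt1 (r = 0.69, rho = 0.66). Ezh2 did not go with Uhrf1 (r = -0.03). It went against Hells (r = -0.49, rho = -0.50), though it was at 83.3 CPM or more in all 10 cells, with and without Hells.

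With the summed S phase genes, which include none of the 10, the correlation was 0.78 for Hells, 0.64 for Dnmt1 and 0.43 for Uhrf1, and -0.40 for Ezh2 (Pearson r, 10 cells). With the summed G2/M genes it was -0.71, -0.67, -0.60 and 0.39 in the same order. The points share a library type and a depth that varies. Uhrf1 went against the total reads of the cell with r = -0.81, Hells with r = -0.55 and Dnmt1 with r = -0.47. The 10 positive cells also divide by title number. Uhrf1 stood at 24.6 CPM or more in numbers 1 to 10 and at 16.4 CPM or less in 21 to 30. Summed Dnmt1 levels were 51.8 and 9.40 CPM in these ranges, and those of Hells 43.0 and 2.83 CPM. G1, G2, G6 and G8 are all in the first range. Every positive cell of the second range was deeper than every one of the first, so depth and title range cannot be told apart. In the 11 negative cells Dnmt1 went with the S phase sum with r = 0.82, and 0.80 without N24, whereas Uhrf1 had r = 0.73 with N24 and 0.00 without it. The G2/M sum did not go against these genes there, with r = 0.67 for Dnmt1, 0.38 for Hells and 0.67 for Uhrf1. Without N24 these values were 0.52, 0.06 and 0.00. Ezh2 had r = 0.55 with the S phase sum in the negative cells, and 0.35 without N24.

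The genes most like each of these over the 21 E14.5 cells, after centring within each group, were named from 5640 genes that reached 10 CPM in at least 8 of the cells. For Dnmt1 they were Mcm4 (r = 0.86), Prim2 (0.83) and Spice1 (0.81), and for Hells they were Dtl (0.87), Pola1 (0.81) and Prim2 (0.80). For Ezh2 they were Tex30 (0.87), Rpp25l (0.76) and Ppih (0.76). For Uhrf1, Shcbp1 (0.79) and Sgol2 (0.77) rested on N24, at 0.36 and 0.20 without it, and Mpp7 (0.77) did not (0.78). For Dnmt3a, Tet1, Tet2 and Tet3 the first was Wbp11 (0.76), Pip5k1b (0.77), Nln (0.74) and Fam178a (0.84).

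The other genes of these pathways were followed in 9 lists with 97 genes in the table. Of these, 50 were at least 2-fold lower and 19 higher in P5 positive than in E14.5 positive cells (median log2 ratio -1.17, against -0.39 for all genes, of which 40.7% were lower and 30.3% higher). At E14.5 24 were higher and 20 lower in positive cells (median 0.01), near or below the 22.5% and 29% of all genes. Among the 9 PRC2 core and accessory subunits, 5 were lower and 1 higher at P5, among them Suz12, which PRC2 needs for its activity (6.26 against 137 CPM, log2 ratio -4.45, and -5.26 without L2P3). By cell, Suz12 ranged from 3.94 to 310 CPM (median 150) in E14.5 positive cells and from 0 to 19.9 CPM (median 1.13) in P5 positive cells. Eed, the subunit that binds the methylated histone, stood at 4.04 against 73.7 CPM, with medians of 1.59 and 43.8 CPM over the cells and a log2 ratio of -4.19, which was -3.16 without G27 and -5.05 without L2P3. Ezh2, beside these partners, stood at 248 against 229 CPM. Rbbp7, a histone-binding subunit, was abundant at both stages, at 1915 and 2723 CPM. Phf19, the 1 subunit that was higher at P5, had all its P5 positive reads in the endothelial-led cell L2P12.

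Of 6 DNA methylation partners 2 were lower and 2 higher (Cdca7l and Zfp57). The endothelial-led cell L2P12 held 93.5% of the P5 positive reads of Cdca7l and 99.7% of those of Zfp57. Usp7, a deubiquitinase that binds Uhrf1 and Dnmt1, stood at 168 against 336 CPM (log2 ratio -0.9998), just under 2-fold, and at -1.74 without L2P8. Among 10 partners of active demethylation, 4 were lower and 1 higher, with Ogt, the enzyme that adds GlcNAc to proteins and binds Tet proteins, at a log2 ratio of -3.23 (-4.11 without L2P8). Of 10 readers of methylated DNA 4 were lower and 4 higher, Zbtb33 (Kaiso) at -1.62 (-2.35 without L2P3) and Mbd2 at -1.51 among them.

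Of 14 lysine 9 methyltransferases and HP1 proteins, 8 were lower and 4 higher at P5. Atrx, a remodeller of heterochromatin, was at -2.56 (-3.19 without L2P12) and the corepressor Trim28 at 3.17, and less abundant genes of the list lay beyond both values. Of 11 histone demethylases of lysines 27 and 9, 9 were lower and none higher (median -2.74), including the lysine 27 demethylases Kdm6a (7.16 against 43.1 CPM) and Kdm6b (5.00 against 67.6 CPM, the latter to 77.3% from cell G8). Their log2 ratios of -2.59 and -3.76 moved when 1 cell was left out, between -3.38 and -1.88 for Kdm6a and between -8.65 (without L2P8) and -1.74 (without G8) for Kdm6b. The Y-linked Uty, with no P5 positive read, is counted among the 9. Of 19 PRC1 subunits 10 were lower and 4 higher, with the ubiquitin ligase Rnf2 at -1.58 and Bmi1 at -0.38. Cell L2P3 held 90% of the P5 positive reads of Rnf2, and without it Rnf2 was at -4.65 and Bmi1 at -1.05. Of 15 deacetylases and corepressors 7 were lower and 2 higher, with Mta1 at -3.47 and Sin3b at -0.03, and of 3 lysine 20 methyltransferases 1 was lower and 1 higher.

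**Figure D4:**
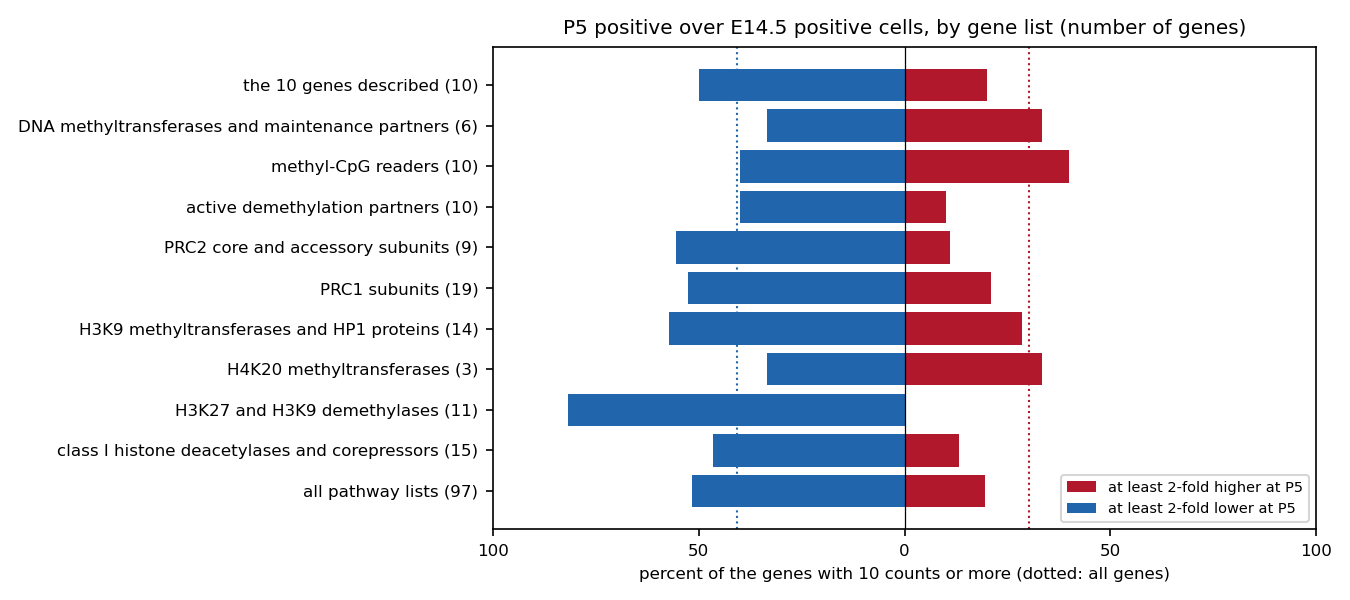
Share of each gene list at least 2-fold higher (red, to the right) or lower (blue, to the left) in P5 positive than in E14.5 positive cells, in percent of the list's genes with 10 reads or more; dotted lines give all genes (30.3% higher, 40.7% lower). The histone demethylases have 9 of 11 genes lower, and the readers of methylated DNA have 4 of 10 in each direction.

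At E14.5 the lists held genes that differed in both directions between positive and negative cells. Hdac2, a class I deacetylase, stood at 770 against 313 CPM (log2 ratio 1.30) and at 440 CPM or more in every positive cell, Zbtb33 at 157 against 52.4 CPM (1.59, and 2.28 without N10) and the PRC2 partner Mtf2 at 176 against 80.7 CPM (1.13, and 0.58 without G27). Among the genes lower in positive cells were Gatad2a (-1.48), Gadd45g (-1.47) and the demethylase Kdm3a (-1.21, and -0.96 without N10). Of 9 PRC2 subunits other than Ezh2 and Ezh1, 3 were higher (against 22.5% of all genes) and none lower (against 29%), with a median of 0.58. They were Mtf2, which was under 2-fold without G27, and Phf1 and Phf19, which were near the floor. The highest E14.5 positive cell stood at 1.18 CPM for Phf1 and 3.69 CPM for Phf19. Dnmt3b, the other enzyme for new methylation, had 2568 reads in positive cells, 67.1% of them in cell G29, and 2 in negative cells. Dnmt3b, Eed, Kdm6a, Kdm6b, Uty, Cdca7l, Zfp57, Phf1, Phf19, Mbd3 and Mbd4 were named after their values were seen. In summed levels like these, fewer cells with a gene and less RNA in each cell cannot be told apart.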

How the data were processed

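The mRNA of each sorted cell was reverse transcribed, checked by PCR and made into a TruSeq library, per the labels' protocols. The values are raw read counts per gene and cell, deposited by the authors as whole numbers. The submitters' processing notes name CASAVA 1.8.2, STAR 2.4.0j, HTSeq 0.6.1p1 and build mm10; the annotation, strand setting and molecular identifiers are not given in the sources used here. Reads copied from one molecule are not independent, so the intervals cover counting error only.

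Counts were divided by each cell's total (CPM) or summed by group, with exact Poisson intervals for levels and exact (Clopper-Pearson) binomial intervals for ratios and shares. Differences are log2 ratios of summed CPM over all 14862 rows; 22 rows whose symbols had become dates stayed in the totals and out of the lists and counts. A gene was called at 2-fold with at least 10 counts over both groups. A group without a count was set to a floor of 3 counts. The ratio code was tested on simulated data. Gene lengths and annotation came from GENCODE vM21 (GRCm38) and promoters from RefSeq. Python 3.11.15, R 4.3.3, edgeR 4.0.16 (TMM factors) and DESeq2 1.42.0 (size factors) were used, the last pair as alternative scalings without a test.

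The 10 genes and all lists were chosen with earlier results of these data known. From the pathway lists, the gene with the highest and the gene with the lowest log2 ratio in each comparison was named, among genes with at least 50 CPM in the higher group and no cell holding over 50% of that group's counts; exceptions are stated, and 1 gene that this rule names is not reported here. Replicate cells of a group come from animals the labels do not name. Genes with near-identical copies can share reads.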

Additional observations from a re-analysis of the deposited data

Results flagged for a closer look

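Of 30 pairs of gene and group with 6 or 10 cells, 13 had a highest cell that stood apart from the others by Dixon's 95% limit. Chance gives about 1 in 20 for normally distributed values, but these levels are skewed and hold many zeros, so the count is a description and has no chance level beside it. The limit was not applied to the 11 E14.5 negative cells.

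Among E14.5 positive cells these were Uhrf1 in G8 (158 CPM, next 84.9), Ezh1 in G8 (3.05 CPM, next 0.520) and Suv39h1 in G25 (31.2 CPM, next 8.75). Among P5 positive cells Dnmt3a stood apart in L2P3 (20.9 CPM), Hells and Tet1 in the endothelial-led cell L2P12 (135 and 21.1 CPM), and Tet3 and Ezh1 in L2P7 (1.92 and 21.6 CPM). Among P5 negative cells Uhrf1 and Suv39h1 stood apart in L2N9 (299 and 189 CPM), Hells in L2N10 (76.1 CPM), Tet2 in L2N7 (22.05 CPM) and Tet1 in L2N12 (0.178 CPM, from 3 reads).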

How the results depend on the processing

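No paired analysis was possible because the labels name no animal and do not say what the numbers in the titles stand for. The count of the 10 genes at least 2-fold higher in E14.5 positive than negative cells, 2, was 0 with DESeq2 size factors, 1 when 10 CPM in the higher group was required, 6 within title numbers 1 to 10, 1 within 21 to 30, 4 without N10 and N24, and 0 to 3 without 1 cell. The count lower, 1, was 0 with the 10 CPM minimum, 6 within title numbers 21 to 30 and 1 to 2 without 1 cell. For P5 over E14.5 positive cells the count higher, 2, was 4 with DESeq2 size factors, 1 with equal weight per cell, thinning, the 10 CPM minimum, cardiomyocyte-led cells alone, or without L1P5, L2P10 and L2P12, and 1 to 3 without 1 cell; the count lower, 5, was 5 to 6. For P5 positive over P5 negative cells the count higher, 3, was 1 with equal weight and 1 to 5 without 1 cell; the count lower, 5, was 3 to 5. For P5 over E14.5 negative cells the counts, 2 higher and 3 lower, were 4 higher without N10 and N24, and 1 to 3 and 3 to 4 without 1 cell.

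Among the ratios called at 2-fold, the directions that turned were those of Uhrf1 and Ezh1 at P5 over E14.5 positive. Uhrf1 was at -0.049 with equal weight per cell, and Ezh1 ran from -4.99 without L2P7 to 4.16 without G8. Hells and Suv39h1 turned in P5 positive over P5 negative. Hells ran from -7.37 without L2P12 to 4.84 without L2N10, and was -7.60 without L1P5, L2P10 and L2P12. Suv39h1 ran from -2.29 without L2P3 to 1.67 without L2N9. Counting also the ratios under 2-fold, log2 ratios kept their direction in 326 of 364 values with changed processing and in 607 of 660 that left out 1 cell. DESeq2 size factors moved every log2 ratio of P5 over E14.5 positive cells by 0.38 and TMM factors by 0.16. The cells without N10 and N24, and without L1P5, L2P10 and L2P12, and the omission of single cells for the pathway genes, were chosen after seeing the data. Cardiomyocyte-led cells alone gave no value for the P5 negative group, which holds none. The cause of these shifts was not tested beyond the cells left out. Counts limit little here: the spread between cells is far wider than the counting intervals, and the number of cells limits every group value.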

Other observations

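Cells with none or 1 of the 10 genes at 10 CPM were found in every group. L1N3, a P5 negative cell with 3747 genes detected and a red blood cell sum of 228015 CPM, had no read of any of them. Among P5 positive cells L1P5 and L2P10 had none at 10 CPM, the former with 2545036 reads and a G2/M sum of 27585 CPM, the latter with 12569879 reads and a G2/M sum of 1490 CPM. Among E14.5 negative cells N23 held 1, Dnmt3a at 33.1 CPM, with 29821260 reads, and among E14.5 positive cells G27 held Ezh2 alone. At the other end, G1, G2 and G8 held 8 of the 10 at 10 CPM or more and N24 held 9.

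In E14.5 positive cells Uhrf1 went with Tet2 across the 10 cells (r = 0.78) nearly as it did with Hells, and both Uhrf1 and Tet2 went against the total reads of the cell (r = -0.81 and -0.83), so that depth is shared by this pair. Tet2 had no such relation to the S phase sum (r = -0.11). The split of these cells by title number is shared by Uhrf1 and Tet2 as well. Uhrf1 summed to 79.0 CPM in numbers 1 to 10 and 9.79 CPM in 21 to 30, and Tet2 to 110 and 9.95 CPM.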
